A study of Homo sapiens with 6 samples.

Results

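The plasminogen activator system was described through 5 genes, PLAU, PLAUR, PLAT, SERPINE2 and SERPINB2, taken by symbol from a table of 61280 gene rows. Each symbol stood in 1 row, and 4 of the 5 passed the expression filter that left 14621 rows to test. RNA came from MDA-MB-231, an established human triple-negative breast cancer line grown in DMEM with fetal bovine serum. The irradiated group held 3 libraries of cells harvested after a 20 Gy X-ray dose and 24 h of further culture, and the control group 3 libraries of untreated cells. How long the controls were cultured is not in the labels, so culture time and irradiation cannot be told apart. Nor is it stated that replicates were separate cultures, so the p-values may reflect technical spread alone. Levels are in TPM, the share of a library's transcripts scaled to a fixed total and corrected for transcript length; the number of reads behind a value is unknown.

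Plasminogen is an inactive circulating protease that becomes plasmin, which digests fibrin and extracellular matrix, when 1 of its activators cuts it. The urokinase-type activator uPA, encoded by PLAU, acts mainly at the cell surface, where its receptor uPAR, encoded by PLAUR, holds it by a lipid-anchored domain protein. The tissue-type activator tPA, encoded by PLAT, is best known for dissolving clots on fibrin. Serpins, inhibitors that trap a protease in a covalent complex, restrain both: SERPINE2 encodes protease nexin-1, which also traps thrombin, and SERPINB2 encodes plasminogen activator inhibitor type 2. High uPA and uPAR are known features of invasive breast cancer cells, this line among them.

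In the control libraries the receptor and uPA transcripts were the most abundant of the 5, at 115.1 and 130.7 TPM on average, ahead of PLAT at 35.29 and SERPINE2 at 14.03 TPM, while SERPINB2 was listed at 0. After irradiation PLAT rose to 1.26 times its control mean, the only member past the test. PLAU was lower in every irradiated library and SERPINE2 higher in every one, but neither passed, and the PLAUR values of both groups overlapped. By adjusted p under 0.05 (limma on log2(TPM + 1), two-sided, Benjamini-Hochberg over all tested rows), 10.6% of all tested rows were called, 955 higher and 595 lower, so 1 call among 4 tested members is no result about the group. After median-ratio scaling of the libraries the split over all rows was 778 higher and 852 lower. Leaving out control replicate 1, 2 or 3 reduced the 1550 calls to 356, 306 or 774, and leaving out irradiated replicate 1, 2 or 3 to 688, 1390 or 488. In what follows, changes of single genes are given ± SE on the log2 scale.

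The labelled cell type was checked against marker genes. VIM, a mesenchymal filament gene, stood at 1935.57 to 2011.25 TPM in the controls and 1582.92 to 1598.63 TPM after irradiation. The hormone receptor gene PGR was listed at 0 and ESR1 at most at 0.39 TPM in every library. ERBB2 was at 20.94 to 27.94 TPM, and CDH1, the epithelial cadherin gene, at most at 0.4 TPM. The epithelial genes EPCAM and GATA3 were read in every library, at 8.32 to 11.27 and 3.7 to 4.96 TPM, so epithelial markers were mixed and not all near 0. Among fibroblast genes, COL1A1 was at 6.69 to 13.19 TPM, and PDGFRA and DCN at most at 0.11 and 0.1 TPM. The endothelial genes PECAM1, VWF and CDH5 were at most at 1.5, 0.46 and 0.11 TPM. Irradiated replicate 1 stood apart in PTPRC, a leukocyte gene, with 40.36 TPM against 0.11 to 0.45 in the other 5 libraries, while the leukocyte genes CD3E and CD14 were at most at 0.05 and 0.59 TPM anywhere. Its part in the results was not tested beyond leaving that library out, which is given with each member.

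The promoter-proximal sequences of the activator and of its receptor are shown because PLAU was lower in every irradiated library, without passing the test, while the values of PLAUR, its partner of nearly equal level in the controls, overlapped between the groups. Sequences are from RefSeq on GRCh38.p14, read 5′ to 3′ on the gene's strand, with positions counted back from the listed start. For PLAU, the 222 bases from -250 to -29 at chr10:73910882-73911103 (plus strand) are printed, which no GENCODE transcript of the gene has as exon; capitals mark GGGCGG, the core of an Sp1 box. For PLAUR, the 29 bases from -197 to -169 at chr19:43670338-43670366 (minus strand) are printed; capitals mark a match to TGANTCA, the AP-1 element.
PLAU: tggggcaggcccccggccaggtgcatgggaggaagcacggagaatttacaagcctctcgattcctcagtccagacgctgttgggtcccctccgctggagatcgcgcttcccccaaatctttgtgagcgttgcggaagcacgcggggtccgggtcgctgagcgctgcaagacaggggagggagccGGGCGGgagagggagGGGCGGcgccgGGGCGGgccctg
PLAUR: tcacaactccaTGAGTCAgggccgagcca

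Both strands of the 250 bases before the start were searched for the Sp1 core GGGCGG, the AP-1 element TGANTCA, the ETS factor core CCGGAA, the box TATAAA and the cyclic AMP element TGACGTCA. PLAU held 3 GGGCGG boxes, at -66, -51 and -40, all on the gene's strand and none overlapping another motif, and no other match. PLAUR held 1 AP-1 match, at -186 to -180, and no other match. The SERPINE2 window, not printed here, held 2 GGGCGG boxes, at -230 and -183, both on the opposite strand. The start used lay 25 bases from the nearest start of a transcript that GENCODE marks as principal for PLAU. That distance was 181 bases for PLAUR and 679 for SERPINE2, so their windows need not lie upstream of the principal start. For SERPINE2 the start used was at 224038640, and the annotated gene begins at 224039319 on the minus strand. Its window, and both boxes in it, thus lie inside the annotated gene and not upstream of it. Of 35116 listed promoter windows of the same length, 42.6% held GGGCGG and 6.57% held TGANTCA, so the first is common and the second uncommon. GC made up 68.8% of the PLAU window and 63.2% of the PLAUR window, against a median of 58.0% over all windows. All 250 bases of the PLAUR window lie in exons of GENCODE transcripts of the gene, so the listed start is not its only one. A match describes letters only, and the distal enhancer through which AP-1 and ETS factors are known to act on PLAU lies farther upstream and was not searched.

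PLAU (ENSG00000122861; chromosome 10, 73909177 to 73917497, hg38, plus strand) encodes the activator most tied to cell-surface proteolysis. Its level was 150.75, 119.31 and 122.18 TPM in control replicates 1, 2 and 3, and 114.43, 93.41 and 100.19 TPM in irradiated replicates 1, 2 and 3. Every irradiated value lay below every control value, though the highest irradiated and the lowest control value were close, and control replicate 1 was well above the other controls. Group means were 130.7 ± 17.38 and 102.7 ± 10.73 TPM (SD, n = 3 each), a log2 change of -0.34 ± 0.11 (SE; 95% interval -0.59 to -0.09). The change did not pass after adjustment over all genes (limma, adjusted p = 0.0844). Groups without overlap were seen in 34.9% of all tested rows, and in 14.5% with the irradiated side lower, so the separation alone is not unusual here.

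PLAU was variable for its abundance. Its residual SD was 0.167 on the log2 scale, against a median of 0.0683 for the 1861 tested genes within 2-fold of its mean, and only 6.07% of those genes had a larger one. Without control replicate 1 the log2 change was -0.24 (adjusted p = 0.19), and without irradiated replicate 1 it was -0.42 (adjusted p = 0.0721). C10orf55, a gene on the opposite strand, shares 916 of the 2950 exonic bases of PLAU (31.1%) and stood at 0.39 to 0.92 TPM. The strand setting is not given in the sources used here, and without one the reads of this pair cannot be told apart where they overlap.

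PLAUR (ENSG00000011422; chromosome 19, 43646095 to 43670547, hg38, minus strand) encodes the receptor that concentrates uPA on the membrane. It was read at 121.25, 111.52 and 112.55 TPM in the controls and at 112.93, 115.4 and 114.6 TPM in the irradiated libraries. The irradiated values fell inside the control range, and the 3 irradiated libraries were closer to each other than the controls. Means were 115.1 ± 5.345 and 114.3 ± 1.26 TPM (SD, n = 3 each), a log2 change of -0.01 ± 0.05 (SE; adjusted p = 0.921). The 95% interval, -0.12 to 0.10, bounds any change of this transcript more tightly than that of any other member. The sign was positive without control replicate 1 (0.03) and after quantile normalization (0.02), and the change was -0.09 after GC and length correction, so no direction is given. Without irradiated replicate 1 the change was -0.000332.

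PLAT (ENSG00000104368; chromosome 8, 42175233 to 42207724, hg38, minus strand) encodes tPA, the activator with affinity for fibrin. Values were 38.17, 33.19 and 34.5 TPM in the controls and 42.97, 42.62 and 47.52 TPM after irradiation. The groups did not overlap, with irradiated replicate 3 the highest and control replicate 1 the nearest control. PLAT rose from 35.29 ± 2.582 to 44.37 ± 2.734 TPM (SD, n = 3 each), a log2 change of 0.32 ± 0.07 (SE; 95% interval 0.15 to 0.49; adjusted p = 0.036). A larger change in either direction was seen in 19.3% of tested rows, so most rows changed less, but a change of this size was not rare. The call was lost without control replicate 1 (adjusted p = 0.0584), control replicate 2 (0.125), control replicate 3 (0.0993), irradiated replicate 1 (0.0726) or irradiated replicate 3 (0.101), and kept without irradiated replicate 2 (0.0487). These fits have fewer samples, and the log2 change stayed between 0.27 and 0.38 in them.

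SERPINE2 (ENSG00000135919; chromosome 2, 223975112 to 224039319, hg38, minus strand) encodes protease nexin-1, which inhibits uPA, tPA, plasmin and thrombin. It stood at 14.48, 14.22 and 13.39 TPM in the controls and at 20.37, 15.45 and 16.41 TPM in the irradiated libraries. All irradiated values were above all controls, and irradiated replicate 1, the library with high PTPRC, was the farthest above. Means were 14.03 ± 0.5693 and 17.41 ± 2.608 TPM (SD, n = 3 each), a log2 change of 0.28 ± 0.11 (SE; 95% interval 0.03 to 0.54) that did not pass (adjusted p = 0.139). Groups without overlap and with the irradiated side higher made up 20.4% of tested rows. Without irradiated replicate 1 the log2 change was 0.17 (adjusted p = 0.278). Once trends with GC content and transcript length had been removed it was 0.36 and passed (adjusted p = 0.047).

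SERPINB2 (ENSG00000197632; chromosome 18, 63871692 to 63903890, hg38, plus strand) encodes the inhibitor type 2, a largely intracellular serpin of the clade B cluster. It was listed at 0 in all 3 controls and in irradiated replicate 3, at 0.21 TPM in irradiated replicate 1 and at 0.12 TPM in irradiated replicate 2. Each value is under the filter of 1 TPM, so no test and no fold are given. The files hold no read counts, and a listed 0 can be a failed estimate as well as an absent transcript. SERPINB10, whose exons cover 547 of the 2748 exonic bases of SERPINB2 (19.9%), was listed at 0 in every library except irradiated replicate 2 (0.06 TPM).

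**Figure D1:**
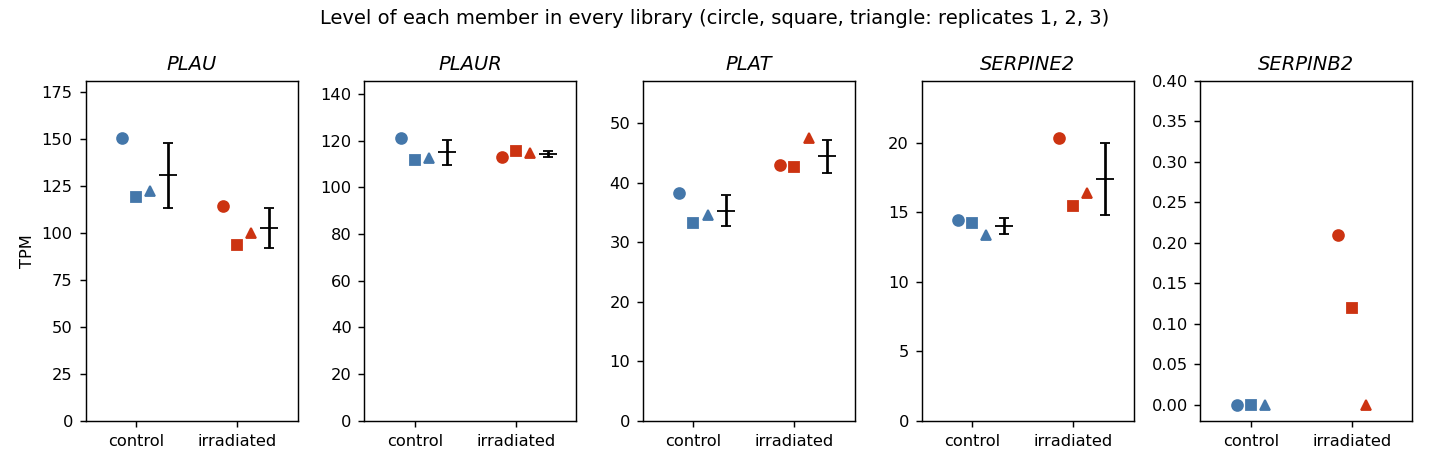
TPM of each member (vertical axes, a separate scale per gene) in the control (blue) and irradiated (red) libraries, with the replicate number given by the symbol and the mean ± SD in black except for SERPINB2, whose values lie between 0 and 0.21 TPM. PLAU lies lower and PLAT and SERPINE2 higher in all 3 irradiated libraries, and the PLAUR values of both groups overlap.

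In order of mean level in the irradiated libraries, the receptor came first at 114.3 TPM, then PLAU at 102.7, PLAT at 44.37 and SERPINE2 at 17.41 TPM. PLAUR and PLAU could not be ordered beyond their spread, since PLAU in irradiated replicate 1 (114.43 TPM) lay within the PLAUR range. Every PLAT value was above every SERPINE2 value and below every PLAU value, in both groups. Over all 6 libraries, 91.9% of tested rows had a lower mean than PLAU, 91.8% than PLAUR, 76.6% than PLAT and 54.7% than SERPINE2. In bulk RNA, fewer cells with a transcript and less of it per cell cannot be told apart.

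A ratio of 2 members' TPM within a library does not change when all values of that library are multiplied by 1 factor, though corrections that act on genes unequally can move it. There were 3.95, 3.59 and 3.54 PLAU transcripts for each PLAT transcript in control replicates 1, 2 and 3 (ratio of TPM), against 2.66, 2.19 and 2.11 after irradiation. The ratio of uPA to tPA transcripts was thus lower in all 3 irradiated libraries. On the log2(TPM + 1) scale it went from 1.86 ± 0.09 to 1.19 ± 0.18 (SD, n = 3 each), a difference of -0.67. Activator to inhibitor, the ratio of PLAU to SERPINE2 was 10.4, 8.39 and 9.12 in the controls and 5.62, 6.05 and 6.11 in the irradiated libraries. That ratio was also lower in every irradiated library, by 0.63 on the log2 scale (difference -0.63). The ratio of uPA to its receptor was 1.24, 1.07 and 1.09 in the controls and 1.01, 0.809 and 0.874 after irradiation, so the activator transcript outnumbered that of its receptor in all controls and in 1 irradiated library.

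All 6 pairs of the 4 tested members were compared by an exact two-sided permutation test over the 20 assignments of 6 samples, which cannot give a p below 0.1. The pairs PLAU with PLAUR, PLAT or SERPINE2, and PLAUR with PLAT or SERPINE2, had groups without overlap and reached that smallest exact p of 0.1 (0.12 after Benjamini-Hochberg adjustment over 6 pairs), which does not pass 0.05. These 5 pairs each hold PLAU or PLAUR and are not independent, and 34.9% of all tested rows taken singly had groups without overlap. PLAUR to PLAT differed by -0.33 and PLAUR to SERPINE2 by -0.29 on the log2 scale. Only for PLAT with SERPINE2 did the groups overlap, with a difference of 0.04 (exact permutation p = 0.8). The sign of that last difference turned without control replicate 2 (-0.01), irradiated replicate 2 (-0.01) or irradiated replicate 3 (-0.05), and no other pair changed sign when a library was left out. After GC and length correction, an alternative added after the data were seen, PLAT to SERPINE2 differed by -0.00785, and PLAUR to SERPINE2 differed by -0.45; the 5 pairs other than PLAT with SERPINE2 kept their sign and their exact p of 0.1.

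**Figure D2:**
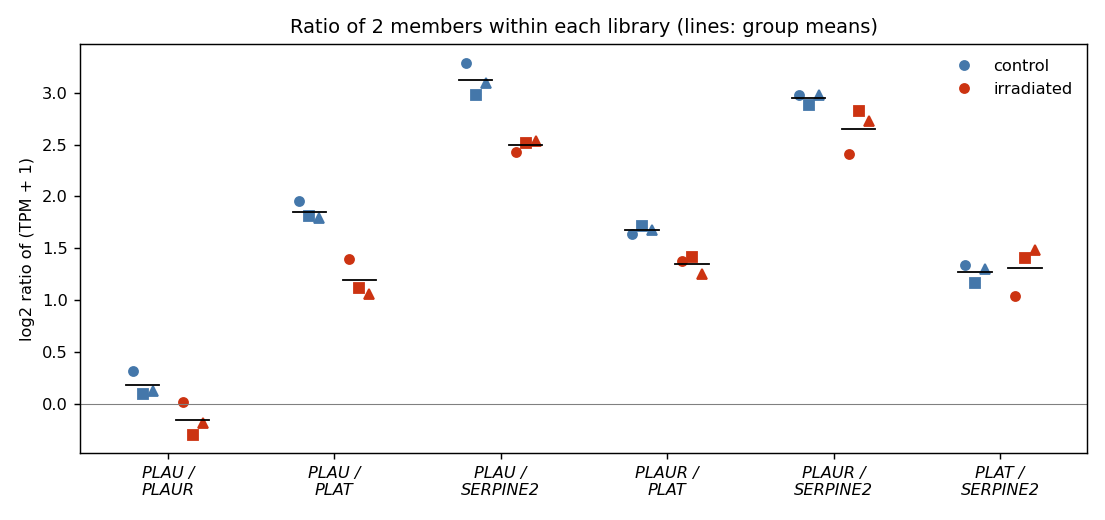
Log2 ratio of (TPM + 1) of 2 members within each library (vertical axis) for the 6 pairs (horizontal axis), control in blue and irradiated in red, with lines at the group means and symbols for replicates 1 (circle), 2 (square) and 3 (triangle). The PLAU to PLAT ratio has the largest difference between group means, -0.67, and the PLAT to SERPINE2 ratio is the only one whose groups overlap.

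Other genes of the pathway were read from 8 lists by role, with 105 genes, of which 70 passed the filter. Among these 11 rose and 9 fell, beside 6.53% of all tested rows called higher and 4.07% called lower. Their median log2 change was 0.07, against 0.03 over all tested rows. Plasminogen itself, PLG, was at most at 0.23 TPM in any library, so the zymogen's own transcript was below the filter. Its surface binding proteins were abundant, and 6 of 7 genes in that list were tested. ANXA2, which with S100A10 forms a plasminogen docking complex, was at 3160.3 to 3312.38 TPM in the controls and 3316.53 to 3373.26 TPM after irradiation (0.05 ± 0.03 on the log2 scale, adjusted p = 0.429). ENO1, a glycolytic enzyme that also binds plasminogen at the surface, fell from 2616 ± 100.4 to 2240 ± 56.11 TPM (-0.22 ± 0.04 on the log2 scale, adjusted p = 0.0205), the 1 call in the list. With control replicate 1 or 2, or irradiated replicate 1 or 3, left out, ENO1 was no longer called (highest adjusted p = 0.07).

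Of 18 partners and clearance receptors of uPAR, 15 were tested, 2 rose and none fell by limma (4 higher and 2 lower at an unadjusted p under 0.05), beside 10.6% of all tested rows called and 28% at an unadjusted p under 0.05. ITGB3, the beta subunit of the vitronectin receptor that pairs with uPAR, rose from 2.61 ± 0.38 to 4.41 ± 0.39 TPM (0.59 ± 0.13 on the log2 scale, adjusted p = 0.0351). No other integrin gene of the list passed, and their signs were mixed. ITGB1, far more abundant at 229.8 and then 191.8 TPM, changed by -0.27 ± 0.09 on the log2 scale (adjusted p = 0.0932). The log2 change was -0.15 ± 0.05 for ITGA3, -0.11 ± 0.11 for ITGB5, 0.11 ± 0.20 for ITGAV and 0.06 ± 0.09 for ITGA5. MRC2, the collagen receptor uPARAP that associates with uPA-bound uPAR, rose from 15.65 ± 0.83 to 19.4 ± 0.69 TPM (0.29 ± 0.07 on the log2 scale, adjusted p = 0.0446). LRP1, which takes up complexes of activator and serpin, was at 6.4 to 6.89 TPM in the controls and 7.83 to 10.25 TPM in the irradiated libraries and did not pass (0.41 ± 0.12 on the log2 scale, adjusted p = 0.0638). ITGB3 was no longer called with any 1 control, or irradiated replicate 1 or 3, left out (highest adjusted p = 0.108). MRC2 was no longer called with any 1 of the 6 libraries left out (highest adjusted p = 0.128), nor under any of the 3 scaling alternatives (median-ratio, quantile, and GC and length; adjusted p = 0.0717, 0.0697 and 0.0591). The list's median log2 change was 0.06.

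A list of other protease inhibitors and related genes, not all of which act on this system, held 15 genes, and 8 were tested. Of these, 3 rose and none fell by limma, beside 10.6% of all tested rows called. At an unadjusted p under 0.05 in the same test, 6 were higher and 1 lower, beside 28% of all tested rows. The list's median log2 change was 0.38. SERPINA1, alpha-1-antitrypsin, which mainly inhibits neutrophil elastase, was at 4.55, 4.26 and 3.85 TPM in the controls and 7.9, 9.58 and 8.89 TPM after irradiation. It was higher in every irradiated library (0.91 ± 0.11 on the log2 scale, adjusted p = 0.00692), and the call held under all 15 alternatives. SERPINI1, neuroserpin, an inhibitor of tPA, rose from 8.98 ± 0.94 to 12.95 ± 1.34 TPM (0.48 ± 0.11 on the log2 scale, adjusted p = 0.0375). TFPI2, a Kunitz-type inhibitor of plasmin, rose from 34.74 ± 1.94 to 42.19 ± 0.40 TPM (0.27 ± 0.06 on the log2 scale, adjusted p = 0.0294). With any 1 control, or irradiated replicate 1 or 3, left out, SERPINI1 (highest adjusted p = 0.124) and TFPI2 (0.109) were no longer called, and TFPI2 was not called after median-ratio scaling either (0.055). SERPINA5, the protein C inhibitor, which also acts on uPA, missed the threshold (0.56 ± 0.15 on the log2 scale, adjusted p = 0.0541). It was low, at 1.41 to 2.11 TPM in the controls and 2.87 to 3.54 TPM after irradiation. TFPI was the 1 gene lower at an unadjusted p under 0.05, from 45.25 ± 0.64 to 39.27 ± 3.69 TPM, and did not pass (-0.20 ± 0.07 on the log2 scale, adjusted p = 0.125).

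Of 12 clade B serpins, relatives of SERPINB2, 9 were under the filter, and 3 of these were listed at 0 in every library. SERPINB7, also under the filter and so not tested, was at 0.59 to 0.63 TPM in the controls and 0.73 to 0.95 TPM after irradiation. SERPINB6, an intracellular inhibitor, was at 52.79, 49.81 and 51.63 TPM in the controls and 67.87, 68.76 and 69.59 TPM after irradiation. The groups were far apart for their spread (0.41 ± 0.05 on the log2 scale, adjusted p = 0.00552), and the call held under all 15 alternatives. SERPINB6 was the 1 call by limma among the 3 tested genes of the list, beside 10.6% of all tested rows called. SERPINB1 (0.08 ± 0.12 on the log2 scale, adjusted p = 0.708) and SERPINB8 (0.20 ± 0.08, 0.16) did not pass.

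In the family of LY6 and uPAR domain proteins, 4 of 10 genes were tested and none was called by limma; at an unadjusted p under 0.05 there was 1 of 4, PINLYP, beside 28% of all rows. CD59, a complement inhibitor with the same lipid anchor and 1 such domain, was at 262.07 to 268.77 TPM in the controls and 253.79 to 284.27 TPM after irradiation (0.03 ± 0.05 on the log2 scale, adjusted p = 0.711). PINLYP, the gene of a phospholipase inhibitor with such a domain, was at 3.84 to 4.24 and 5.27 to 7.25 TPM (0.46 ± 0.13 on the log2 scale, adjusted p = 0.0714). The list's median log2 change was 0.19. Neither gene passed under any of the 15 alternatives.

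Of 15 activators of pro-uPA and related genes at the cell surface, 9 were tested, 1 rose and 1 fell. Over all tested rows, 10.6% were called. ST14, matriptase, a membrane protease that can activate pro-uPA, was at 1.35, 1.13 and 1.03 TPM in the controls and 2.85, 2.37 and 2.74 TPM after irradiation. It was low in all libraries but did not overlap between groups (0.75 ± 0.14 on the log2 scale, adjusted p = 0.0189). F3, tissue factor, the receptor that starts coagulation, fell from 266.6 ± 13.59 to 215.3 ± 13.86 TPM (-0.31 ± 0.06 on the log2 scale, adjusted p = 0.0246). ST14 was no longer called with any 1 control, or irradiated replicate 1 or 3, left out (highest adjusted p = 0.0753). The same held for F3 with control replicate 1 or 2, or irradiated replicate 3, left out (highest adjusted p = 0.0959). The list's median log2 change was 0.08.

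Of 15 substrates of plasmin, uPA or tPA, 12 were tested, 3 rose and 2 fell, beside 10.6% of all tested rows called. The list's median log2 change was 0.08. MMP3, a matrix metalloproteinase secreted as a zymogen that plasmin can activate, had values of 2.08, 2.45 and 1.18 TPM in the controls and 7.72, 8.81 and 7.3 TPM after irradiation (1.65 ± 0.18 on the log2 scale, adjusted p = 0.00552). TGFB1, whose latent protein plasmin can release, was at 35.53, 33.61 and 32.91 TPM and then 45.84, 46 and 45.69 TPM (0.42 ± 0.05 on the log2 scale, adjusted p = 0.00705). Both kept their call under all 15 alternatives. MMP14, a membrane-bound metalloproteinase, rose to 87.02 ± 3.25 TPM from 67.4 ± 3.16 (0.36 ± 0.05 on the log2 scale, adjusted p = 0.0111), a call that was lost when control replicate 1 was left out (0.0516). FN1, fibronectin, fell from 38.01 ± 1.73 to 29.29 ± 2.39 TPM (-0.37 ± 0.08 on the log2 scale, adjusted p = 0.0269), and F2RL1, a protease-activated receptor, fell too (-0.26 ± 0.05 on the log2 scale, adjusted p = 0.0265). FN1 was no longer called with any 1 control, or irradiated replicate 1 or 3, left out (highest adjusted p = 0.104), nor after GC and length correction (0.0974). F2RL1 was no longer called with any 1 control, or irradiated replicate 1, left out (highest adjusted p = 0.0948).

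All 13 transcription factors known to act on PLAU were tested, 5 fell and 1 rose, beside 4.07% of all tested rows called lower and 6.53% higher. The list's median log2 change was -0.16, against 0.03 over all rows. FOSL1, an AP-1 subunit abundant in this line, was at 256.35, 252.06 and 234.31 TPM in the controls and 201.25, 205.58 and 194.36 TPM after irradiation. Its groups were well separated (-0.30 ± 0.05 on the log2 scale, adjusted p = 0.0132). SP1, a factor that binds GC boxes, fell from 17.93 ± 1.15 to 12.79 ± 1.93 TPM (-0.47 ± 0.12 on the log2 scale, adjusted p = 0.0472). The AP-1 subunit genes FOSL2 (-0.38 ± 0.09 on the log2 scale, adjusted p = 0.0416) and JUN (-0.25 ± 0.05 SE, 0.0224) and the NF-kB subunit gene RELA (-0.32 ± 0.08 SE, 0.0474) also fell. The AP-1 subunit genes did not move together. FOS (0.15 ± 0.12 on the log2 scale, adjusted p = 0.471), JUNB (0.15 ± 0.06, 0.165) and JUND (0.14 ± 0.09, 0.354) had positive changes that did not pass. EGR1, an immediate early factor, rose (0.29 ± 0.07 on the log2 scale, adjusted p = 0.0442). FOSL1 was no longer called with control replicate 1 or 2, or irradiated replicate 3, left out (highest adjusted p = 0.0631). With any 1 control, or irradiated replicate 1 or 3, left out, the calls of SP1 (0.151), FOSL2 (0.138), JUN (0.0818) and EGR1 (0.137) were lost, with the highest adjusted p in brackets. RELA was no longer called with control replicate 1 or 2, or any 1 irradiated library, left out (highest adjusted p = 0.144), nor after quantile normalization (0.0521), and EGR1 was not called after GC and length correction. Whether these factors bear on PLAU in these cells was not tested.

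**Figure D3:**
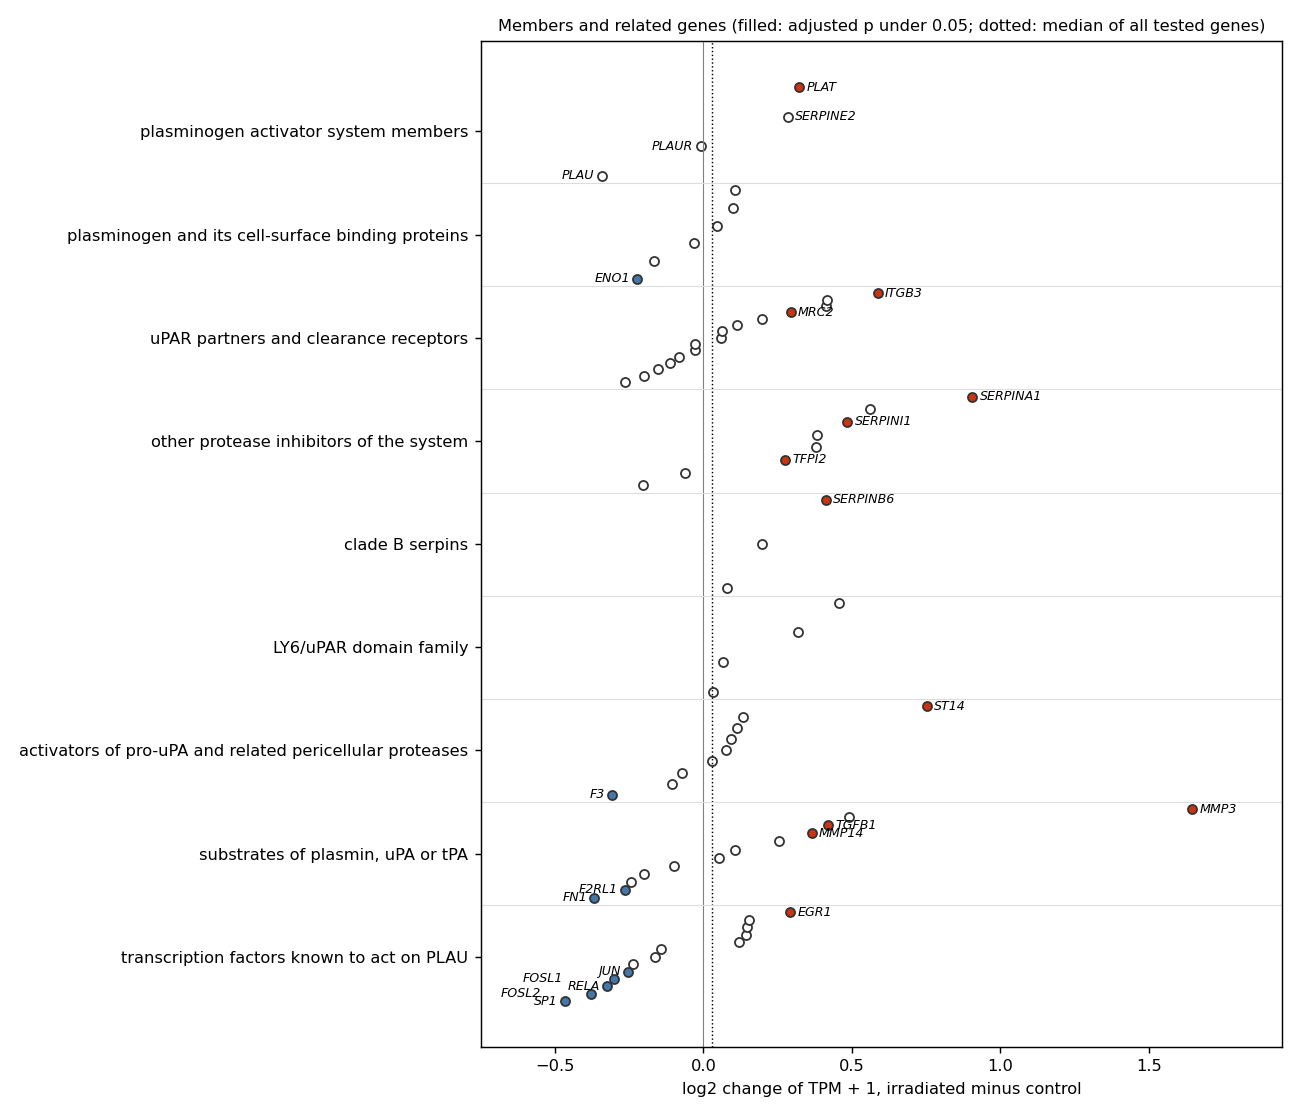
Log2 change of TPM + 1, irradiated minus control (horizontal axis), for the 4 tested members and the 70 tested genes of 8 related lists (rows), with called rises in red, called falls in blue and uncalled genes open. PLAT is the filled member at 0.32, MMP3 lies farthest right at 1.65, and 5 of the 6 called transcription factor genes lie left of 0.

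Genes whose levels followed a member most closely over the 6 libraries were taken from 10067 tested genes with a symbol and a mean of at least 5 TPM, by Pearson correlation of log2(TPM + 1). For PLAU these were ATG3 (r = 0.988), an enzyme of autophagosome formation, TCF7L2 (0.986), a transcription factor of Wnt signalling, and ZC3H15 (0.985). For PLAUR they were CCNG1 (0.972), which encodes cyclin G1, ALG6 (0.966), an enzyme of glycan assembly, and the non-coding RNA LINC01145 (0.96). The tPA gene was followed by DLX4 (0.993), a homeobox factor, ADGRD1 (0.99), an adhesion receptor, and SEC22B (0.989), a vesicle fusion protein. SERPINE2 was followed by MINDY3 (0.993), a deubiquitinase, TTK (0.987), a spindle checkpoint kinase, and DDX41 (0.982), a helicase. With 6 libraries in 2 groups such values are common and carry no test: 47 genes for PLAU, 6 for PLAUR, 86 for PLAT and 38 for SERPINE2 had r above 0.95. No member was among the 3 genes most like another member.

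**Figure D4:**
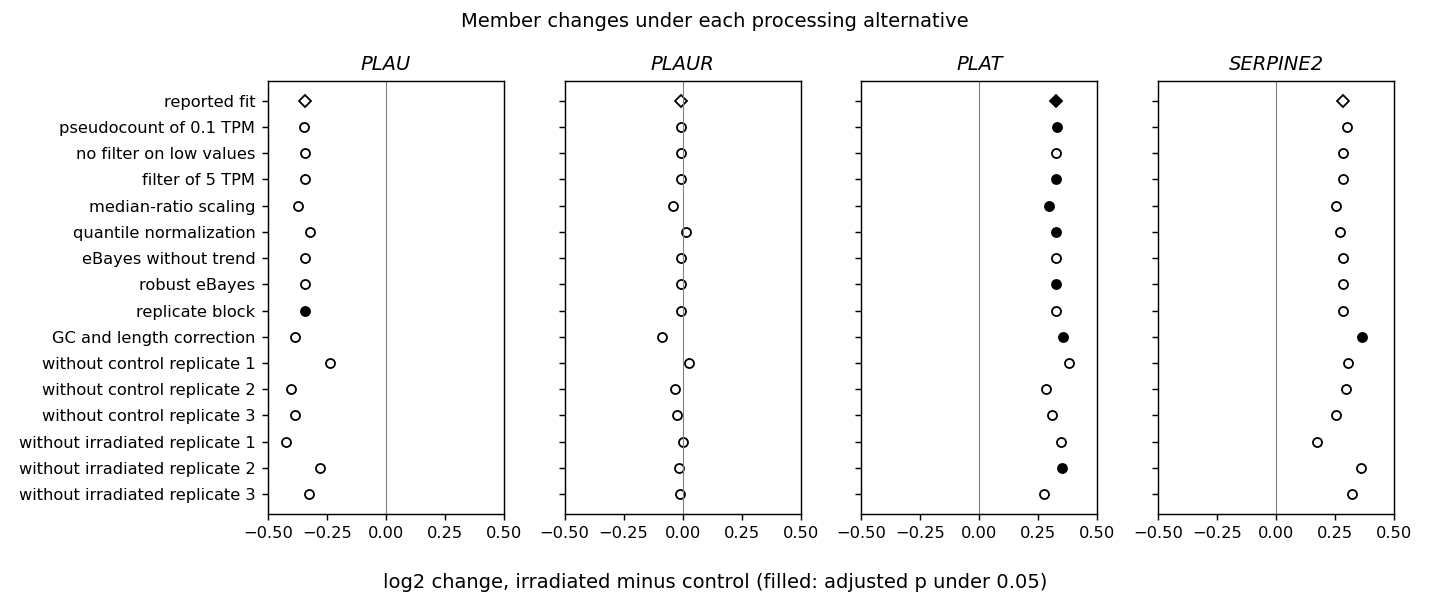
Log2 change, irradiated minus control (horizontal axes), of the 4 tested members under the reported fit (diamond) and 15 processing alternatives (circles, 1 per row), filled where the adjusted p was under 0.05. PLAU stays between -0.42 and -0.24, PLAT between 0.27 and 0.38 and SERPINE2 between 0.17 and 0.36, and PLAUR lies on both sides of 0.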

How the data were processed

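RNA-seq libraries of MDA-MB-231 cells were made with a TruSeq kit, per the labels' protocols. HISAT2, StringTie, RSEM and build hg38 are named in the submitters' processing notes, with no role or version. The authors deposited 1 TPM table with a column per library, with nearly the same total in every column; 20671 rows had no symbol, and those that passed the filter stayed in the test.

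Groups came from the sample titles. Rows that reached 1 TPM in 3 or more of the 6 libraries were tested on log2(TPM + 1), which understates changes of low genes, with limma 3.58.1 in R 4.3.3 (eBayes with trend, 4 residual and 3.39 prior degrees of freedom). In no pair of libraries of a group were more than 0.479% of tested values identical. In a single simulated table of 14197 genes, 52, 52, 41 and 50 genes were changed by 0.3, 0.5, 1 and 2 (log2). Of these, 11.5%, 34.6%, 73.2% and 96% were recovered, and 4 of 106 calls were false. Far fewer genes were changed there than were called in the data, so these shares need not carry over. Coordinates, lengths and GC content are from GENCODE 29, on the same assembly as hg38.

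The members and lists were chosen with earlier results of these data known. Named genes were all members, per list up to 4 called genes of largest change or else the 2 most abundant, and 3 genes most like each member. Genes named outside this rule, after their values were seen, were PLG, ANXA2, LRP1, SERPINA5, SERPINB7, SERPINB10, C10orf55, F2RL1, JUN and EGR1. The same holds for ITGB1, ITGA3, ITGAV, ITGB5, ITGA5, TFPI, SERPINB1, SERPINB8, FOS, JUNB and JUND. The lists do not cover every gene of the system.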

Additional observations from a re-analysis of the deposited data

How the results depend on the processing

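The 15 alternatives changed the pseudocount (0.1), the filter (none, or 5 TPM), the scaling (median-ratio, quantile, GC and length), the eBayes variant (without trend, or robust), the block, or left out 1 library. PLAT kept its sign in all 15, but was not called with no filter (log2 change 0.32, adjusted p = 0.0926), eBayes without trend (0.32, 0.07) or any 1 of 5 libraries left out (0.27 to 0.38, up to 0.125). The GC and length correction alone, besides the block, added a member call, SERPINE2 (0.36). PLAUR turned to 0.0155 after quantile normalization, was -0.0398 after median-ratio scaling and -0.0877 after GC and length correction, and lay between -0.0311 and 0.0287 with 1 library left out. The PLAT to SERPINE2 difference lay between -0.046 and 0.173 with 1 library left out and was -0.00785 after GC and length correction; no other difference between members turned sign. The pairs were run under the 3 scaling alternatives only after the data had been seen. More rows are tested with no filter and fewer samples are fitted with a library left out; otherwise the cause was not tested.

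Of the called related genes, 4 of 20 (SERPINA1, SERPINB6, MMP3 and TGFB1) passed under every alternative that was run. Calls over all rows were 292 higher and 205 lower with no filter, where 32164 rows were tested, and 274 lower with eBayes without trend; with 1 library left out they were 187 to 892 higher and 119 to 498 lower. Related genes called were 5 higher and 2 lower with no filter, 1 lower with eBayes without trend, and 4 to 14 higher and 0 to 8 lower with 1 library left out.

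With the replicate block, 210 rows were higher and 152 lower, 4 related genes were higher and 1 lower, PLAU passed (-0.34, adjusted p = 0.0442) and PLAT did not (0.32, 0.0826). Deviations of same-numbered libraries correlated by 0.031, -0.0554 and -0.025. The labels give only a replicate number, and such correlations cannot settle whether same-numbered libraries were paired.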
